A study of Homo sapiens with 8 samples.

Results

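A set of 46 interferon-stimulated genes was followed in RNA-seq libraries of HCE-T, an established human corneal epithelial cell line grown as a barrier in a microfluidic chip. The members were chosen by their symbols, as genes known to be induced by interferon, and with earlier results of these data known. All 46 were among the 18430 genes of the deposited table and passed the filter on low counts, which left 17445 genes tested. Cells were cultured in the chip for 7 days and then kept for 24 h in 1 of 4 conditions with 2 libraries each. ST was static culture, ST_DCF was static culture with 50 µM diclofenac (DCF, a non-steroidal anti-inflammatory drug) in the upper channel, AL was a cyclic air-liquid stimulus in which air and medium were pushed in turn over the cells with a pause between cycles, and AL_DCF was the same stimulus with 50 µM DCF. All groups share 1 cell line and 1 growth medium with serum, insulin, epidermal growth factor and dimethyl sulfoxide, and the chip held no immune or nerve cells, so the groups model the response of the epithelial cells alone. The study describes the duplicates as independent biological samples. A library is named by its group and replicate number, so that AL 2 is replicate 2 of AL. Total counts were 32880479 to 37954695 in the 4 static libraries and 41854839 to 46369412 in the 4 AL libraries. Levels are in CPM, a gene's count scaled to a common library total. Changes are log2 fold changes ± standard error from the quasi-likelihood test of edgeR, and a gene was called at an adjusted p under 0.05, after Benjamini and Hochberg over all genes tested. Where a call ended when 1 library was left out, that library is named with the adjusted p found without it in parentheses.

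Interferons are secreted proteins that signal through cell-surface receptors and the kinases JAK1 and TYK2. Type I and type III interferons lead to a complex that holds STAT2 and IRF9 and binds the interferon-stimulated response element (ISRE), and the response to type II interferon runs through the gamma-activated site (GAS). The genes switched on in this way hinder virus entry, sense or degrade viral RNA and feed back on the pathway, and epithelial cells at body surfaces such as the cornea express many of them at a resting level.

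Promoter sequence was read because these genes were chosen by name and not by sequence. A RefSeq promoter window (GRCh38.p14, 250 bases before to 50 bases after a transcription start) was found for 37 of the 46 members. IRF7, USP18, MX2, TRIM22, OAS2, IFIT2, OASL, IFITM2 and GBP2 had none. The ISRE core, taken as GAAA, any 2 bases and GAAA and searched on both strands, was found in a window of 26 of the 37 members (70.3%), against 4.38% of the 27305 genes with a window. The GAS core TTCNNNGAA, searched in the same way, was in 12 of the 37 (32.4%), against 9.38%. The stretches show the motif in capitals with 16 bases on either side, 5′ to 3′ on the gene's own strand. A run of TTTC, any 2 bases and TTTC is the ISRE core on the other strand. ISG15, IFIT1, IFI44L and BST2 were chosen as members higher in AL_DCF 2 than in AL_DCF 1, DDX60 and SAMD9 as members that fell in AL, and LGALS3BP and IRF1 as members with close levels in the AL_DCF libraries. These are not separate classes. DDX60 and SAMD9 were also higher in AL_DCF 2, with ratios to AL_DCF 1 of 1.89 and 1.79, against 1.33 for ISG15 and 1.43 for BST2. ISG15, IFIT1, LGALS3BP and IRF1 were also called lower in AL.
ISG15 (chr1:1013368-1013415, plus strand): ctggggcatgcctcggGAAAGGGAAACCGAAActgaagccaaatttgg
IFIT1 (chr10:89392491-89392545, plus strand): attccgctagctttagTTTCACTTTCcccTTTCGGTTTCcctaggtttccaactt
IFI44L (chr1:78620359-78620400, plus strand): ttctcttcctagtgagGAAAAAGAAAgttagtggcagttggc
BST2 (chr19:17405729-17405776, minus strand): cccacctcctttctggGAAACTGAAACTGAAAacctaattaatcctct
DDX60 (chr4:168318780-168318821, minus strand): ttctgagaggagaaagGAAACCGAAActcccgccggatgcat
SAMD9 (chr7:93118090-93118131, minus strand): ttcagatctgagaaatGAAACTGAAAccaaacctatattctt
LGALS3BP (chr17:78979956-78979997, minus strand): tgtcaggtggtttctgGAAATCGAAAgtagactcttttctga
IRF1 (chr5:132490873-132490913, minus strand): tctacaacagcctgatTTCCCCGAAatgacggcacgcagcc
The IRF1 line shows a GAS, and the other lines show ISRE cores. The windows of STAT2, IRF1, IRF9, OAS1, GBP6, UBE2L6, HERC6, CMPK2, IFI35, XAF1 and SAMD9L held no ISRE core of these letters. The median log2 fold change of AL against ST was −0.63 over the 26 members with the ISRE core and −0.82 over the 11 without. Of these, 14 and 9 were called lower, against 10.3% of all genes. The 9 members without a window are not in these counts, and a difference by motif was not tested.

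In static culture the set spanned a wide range of levels. In TPM, which account for transcript length, the 46 members summed to 19700 and 20477 in the ST libraries. The highest were IFI27, with a mean of 4016 TPM in ST, IFITM3 with 3409, IFI6 with 3353, ISG15 with 1541 and IFITM1 with 1153, and the lowest were GBP2 with 3.48 TPM and GBP6 with 1.88. The sum was 21003 and 23657 TPM in ST_DCF, 15597 and 13220 in AL, and 13272 and 17512 in AL_DCF. The AL libraries and AL_DCF 1 were thus the lowest, and AL_DCF 2 lay between them and the static libraries. In bulk RNA, fewer expressing cells and less RNA per cell cannot be told apart.

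Under the AL stimulus alone the greater share of the set was lower. In AL against ST, 27 of the 46 members were called lower and 1 higher, where 10.3% of all genes tested were called lower and 7.63% higher, and the median log2 fold change was −0.69 over the members and −0.00028 over all genes. Both AL libraries were below both ST libraries for 44 of the 46 members, a pattern shown by 33.2% of all genes. The exceptions were OASL, which encodes an OAS-like protein without synthetase activity, and IFITM2. In AL_DCF against ST, which shares the ST libraries with the first comparison, 12 members were lower and 1 higher (9.83% and 8.49% of all genes), with a median of −0.36 and both AL_DCF libraries below both ST libraries for 23 members (30.2% of all genes). Against ST_DCF, AL_DCF had 15 members lower and 1 higher (11.4% and 9.38% of all genes), with a median of −0.47 and non-overlapping lower libraries for 29 members (27.2% of all genes). Averaged over both drug states, the AL stimulus lowered 37 members and raised 1 (16.4% and 15.3% of all genes), with a median of −0.60. In 21 members all 4 AL libraries were below all 4 static ones (14.7% of all genes), and in 1 they were all above (13.6% of all genes). The higher member was IFITM2 in each of these comparisons. The counts moved with single libraries. Leaving out a library refits every gene. Where the share of all genes called in such a fit is not given, a count does not separate the listed genes from genes in general. The 27 lower members of AL against ST were 18 when ST 1 was left out, 10 for ST 2, 25 for AL 1, 7 for AL 2 and 38 for either AL_DCF library. The 12 of AL_DCF against ST were 5 when either ST library was left out, 7 for AL_DCF 1 and 35 for AL_DCF 2. The 15 against ST_DCF were 9 when ST_DCF 2 or AL_DCF 1 was left out and 41 for AL_DCF 2. For the averaged stimulus the 37 lay between 25, when AL 2 was left out, and 44, when AL_DCF 2 was.

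**Figure D1:**
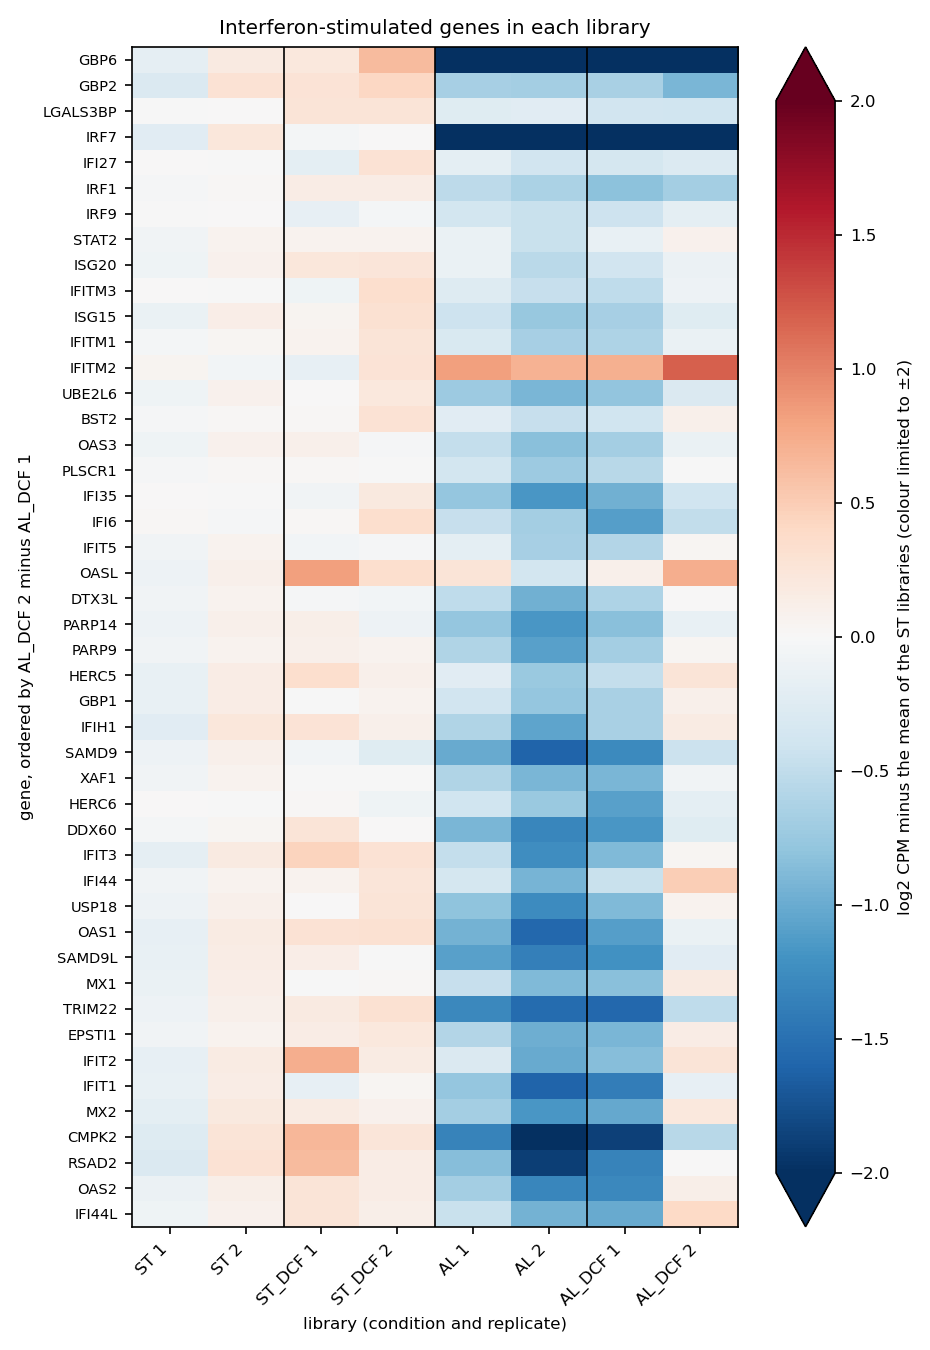
Heat map of the 46 members (lines) in the 8 libraries (columns), as log2 CPM minus the mean of the ST libraries, with the colour limited to ±2 and genes ordered by the difference between the AL_DCF libraries. The AL libraries are below both ST libraries for 44 members (33.2% of all genes). AL_DCF 2 is above the lower ST library for 23 (57.9% of all genes). GBP6 and IRF7 are low in all 4 AL libraries.

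Among the transcription factor genes of the pathway, IRF7 and IRF1 fell in every comparison of an AL condition with a static one. IRF7, which encodes the factor that amplifies type I interferon induction (gene at chr11:612555-615950), was 27.3 and 37.2 CPM in ST, 31.0 and 32.1 in ST_DCF, 7.13 and 6.40 in AL, and 7.62 and 7.75 in AL_DCF. Every AL library was below every static library, and the libraries of a pair lay close together except in ST. The log2 fold change was −2.25 ± 0.15 (adjusted p = 1.8e-06) in AL against ST, −2.07 ± 0.15 (adjusted p = 3.7e-06) in AL_DCF against ST and −2.04 ± 0.15 (adjusted p = 3.4e-06) in AL_DCF against ST_DCF.

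IRF1, the interferon regulatory factor first found at the interferon beta promoter (chr5:132481609-132490773), was 131 and 135 CPM in ST, 147 and 147 in ST_DCF, 92.7 and 86.0 in AL, and 75.6 and 82.9 in AL_DCF. The groups did not overlap, the AL_DCF libraries were the lowest, and the fold change was −0.57 ± 0.08 (adjusted p = 4.9e-04) in AL, −0.75 ± 0.08 (adjusted p = 7.9e-05) in AL_DCF against ST and −0.89 ± 0.08 (adjusted p = 1.8e-05) against ST_DCF. IRF9, the DNA-binding part of the ISRE complex, was 197 and 199 CPM in ST, 176 and 193 in ST_DCF, 154 and 146 in AL, and 149 and 172 in AL_DCF. Its fall was smaller, −0.40 ± 0.09 (adjusted p = 0.0090) in AL and −0.30 ± 0.09 (adjusted p = 0.035) in AL_DCF against ST, and it missed the threshold against ST_DCF at −0.20 ± 0.09 (adjusted p = 0.14). The call of IRF9 in AL ended without ST 1 (0.066), ST 2 (0.078) or AL 2 (0.099), and that in AL_DCF without ST 1 (0.16), ST 2 (0.19), AL 1 (0.062), AL 2 (0.062) or AL_DCF 1 (0.17). STAT2, the partner of IRF9, was 126 and 140 CPM in ST, 139 and 140 in ST_DCF, 122 and 97.9 in AL, and 121 and 141 in AL_DCF. It was not called in any comparison. AL 2 was its lowest library, and AL 1 and AL_DCF 1 were also below every static library.

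**Figure D2:**
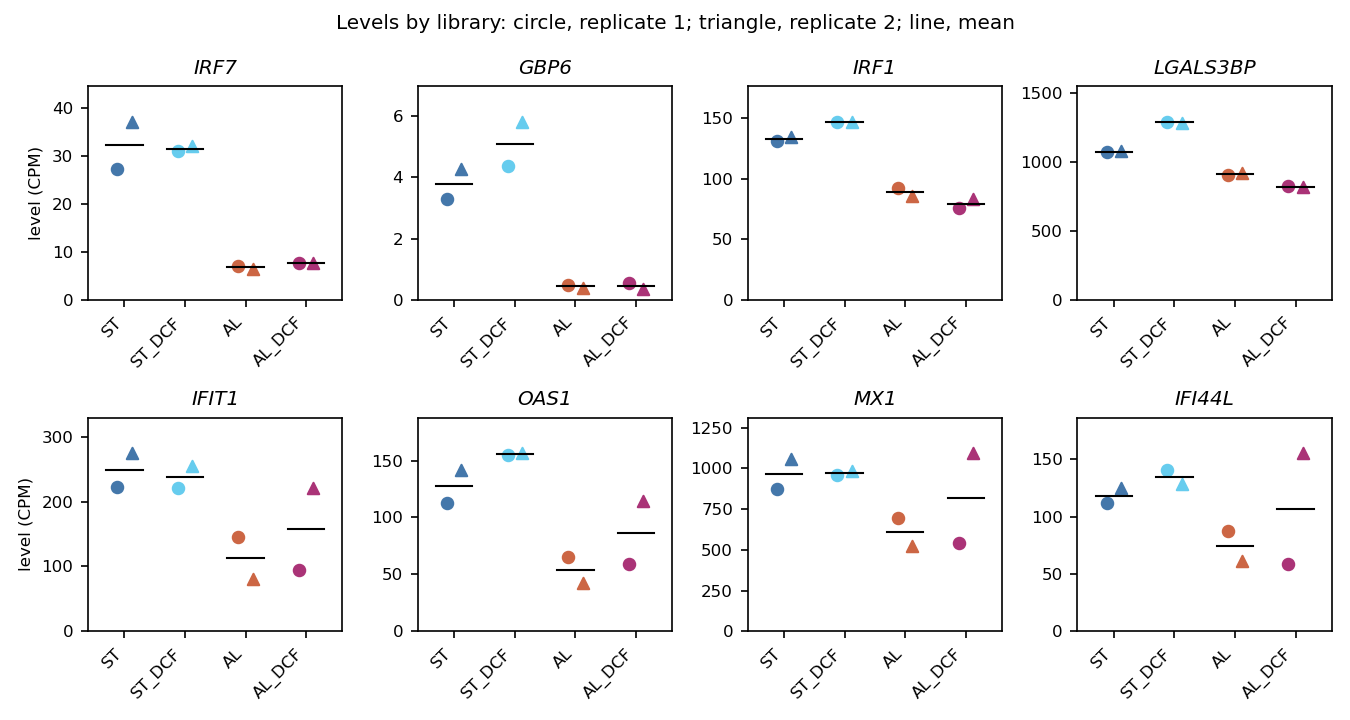
Level in CPM of 8 members in each library (circle, replicate 1; triangle, replicate 2; line, mean of the pair), with each vertical axis starting at 0. IRF7, GBP6, IRF1 and LGALS3BP are low in both AL_DCF libraries, whereas IFIT1, OAS1, MX1 and IFI44L are low in AL_DCF 1 and near or above the ST libraries in AL_DCF 2.

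The guanylate-binding proteins are interferon-induced GTPases that act against intracellular pathogens. GBP6 (chr1:89364059-89388160) had the deepest fall of the set, from 115 and 140 raw counts in ST and 168 and 198 in ST_DCF to 22 and 16 in AL and 25 and 16 in AL_DCF. Its level was 3.30 and 4.27 CPM in ST, 4.38 and 5.82 in ST_DCF, 0.492 and 0.381 in AL, and 0.560 and 0.350 in AL_DCF, and every AL library was far below every static one. The fold change was −3.10 ± 0.32 (adjusted p = 5.1e-05) in AL, −3.05 ± 0.31 (adjusted p = 5.7e-05) in AL_DCF against ST and −3.48 ± 0.31 (adjusted p = 1.8e-05) against ST_DCF. GBP2 was 5.06 and 7.50 CPM in ST, 7.45 and 8.26 in ST_DCF, 3.87 and 3.83 in AL, and 3.90 and 3.24 in AL_DCF. It fell by 0.70, 0.81 and 1.14 on the log2 scale in the same comparisons (adjusted p = 0.037, 0.019 and 0.0026), with all 4 AL libraries below all static ones. The call of GBP2 in AL ended without ST 2 (0.35), AL 1 (0.16) or AL 2 (0.17), and in AL_DCF against ST without ST 2 (0.23) or AL_DCF 2 (0.099). GBP1, which neighbours GBP2 on chromosome 1, was at −0.57 (adjusted p = 0.083) in AL and −0.23 (adjusted p = 0.48) in AL_DCF against ST.

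The IFIT genes, whose products bind viral RNA and block its translation, lie side by side on chromosome 10 between 89302046 and 89420997. IFIT1 was 223 and 275 CPM in ST, 221 and 255 in ST_DCF, 145 and 81.2 in AL, and 94.8 and 221 in AL_DCF. The AL libraries and AL_DCF 1 were below the static libraries, and AL_DCF 2 was close to the lower ST library. IFIT1 fell, at −1.14 ± 0.33 (adjusted p = 0.032) in AL and was not called in AL_DCF, at −0.65 ± 0.32 (adjusted p = 0.19), and its call ended without ST 1 (0.066), ST 2 (0.17) or AL 2 (0.24). IFIT3 was 121 and 155 CPM in ST, 186 and 167 in ST_DCF, 98.4 and 57.4 in AL, and 73.9 and 140 in AL_DCF, and IFIT2 was 106 and 132 CPM in ST, 196 and 132 in ST_DCF, 96.3 and 58.9 in AL, and 65.7 and 141 in AL_DCF. Neither passed the threshold in AL alone, with −0.82 (adjusted p = 0.060) and −0.61 (adjusted p = 0.21), and both were called only for the stimulus averaged over both drug states, at −0.77 ± 0.19 (adjusted p = 0.010) and −0.64 ± 0.22 (adjusted p = 0.046). The averaged call of IFIT2 ended without ST 1 (0.056), ST 2 (0.14), ST_DCF 1 (0.16), AL 2 (0.16) or AL_DCF 1 (0.096). IFIT5 had −0.41 (adjusted p = 0.14) in AL.

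The OAS genes encode synthetases that make the activator of the RNA-degrading enzyme RNase L, and 3 of them share a locus at chr12:112906962-113011723. OAS1 was 113 and 142 CPM in ST, 155 and 157 in ST_DCF, 65.7 and 42.4 in AL, and 58.7 and 115 in AL_DCF. It fell, at −1.24 ± 0.26 (adjusted p = 0.0072) in AL and at −0.84 ± 0.26 (adjusted p = 0.038) in AL_DCF against ST_DCF, and was not called against ST, at −0.55 (adjusted p = 0.16). OAS3, the highest of the family, was 843 and 946 CPM in ST, 955 and 883 in ST_DCF, 642 and 498 in AL, and 560 and 818 in AL_DCF. It fell in AL, at −0.65 ± 0.16 (adjusted p = 0.016), with all 4 AL libraries below the static ones. OAS2 was 241 and 285 CPM in ST, 312 and 291 in ST_DCF, 164 and 106 in AL, and 107 and 285 in AL_DCF, and its AL_DCF libraries were the widest-split pair of the family. It was called for the averaged stimulus at −0.79 ± 0.23 (adjusted p = 0.023), a call that ended without ST 2 (0.073), ST_DCF 1 (0.058) or AL 2 (0.094). The call of OAS1 in AL ended without ST 2 (0.062) or AL 2 (0.084). The call of OAS3 ended without ST 2 (0.12) or AL 2 (0.16). The call of OAS1 against ST_DCF ended without ST_DCF 1 (0.11), ST_DCF 2 (0.10) or AL_DCF 1 (0.16). OASL stood apart from the family, at 62.6 and 71.6 CPM in ST, 118 and 84.4 in ST_DCF, 80.0 and 52.0 in AL, and 72.0 and 111 in AL_DCF, with −0.02 (adjusted p = 0.96) in AL and 0.45 (adjusted p = 0.20) in AL_DCF against ST.

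MX1 and MX2, dynamin-like GTPases that trap viral particles, are neighbours on chromosome 21. MX1 was 877 and 1056 CPM in ST, 958 and 983 in ST_DCF, 696 and 521 in AL, and 541 and 1094 in AL_DCF, and MX2 was 192 and 254 CPM in ST, 247 and 235 in ST_DCF, 138 and 99.1 in AL, and 109 and 256 in AL_DCF. In both genes AL_DCF 2 was above both ST libraries, and AL_DCF 1 lay between the AL libraries. Neither was called in AL, with −0.67 ± 0.25 (adjusted p = 0.085) for MX1 and −0.91 ± 0.30 (adjusted p = 0.055) for MX2. MX2 was called for the averaged stimulus at −0.66 ± 0.21 (adjusted p = 0.033), and that call ended without ST 2 (0.12), ST_DCF 1 (0.075), ST_DCF 2 (0.061) or AL 2 (0.12).

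The genes of ISG15, a ubiquitin-like modifier, and of its conjugation fell in part. ISG15 itself was 393 and 472 CPM in ST, 445 and 529 in ST_DCF, 322 and 254 in AL, and 273 and 364 in AL_DCF. All 4 AL libraries were below the static ones, and ISG15 fell, at −0.58 ± 0.15 (adjusted p = 0.021) in AL and at −0.61 ± 0.15 (adjusted p = 0.015) in AL_DCF against ST_DCF, with −0.44 (adjusted p = 0.066) against ST. UBE2L6, the conjugating enzyme, was 234 and 262 CPM in ST, 248 and 286 in ST_DCF, 150 and 131 in AL, and 144 and 204 in AL_DCF. It was called lower in all 3 comparisons, at −0.82 ± 0.14 (adjusted p = 0.0023), −0.51 ± 0.14 (adjusted p = 0.028) and −0.62 ± 0.14 (adjusted p = 0.010). USP18, which removes ISG15 and dampens receptor signalling, was 53.1 and 61.3 CPM in ST, 57.1 and 68.1 in ST_DCF, 32.8 and 23.8 in AL, and 30.8 and 59.8 in AL_DCF. It fell in AL, at −1.01 ± 0.25 (adjusted p = 0.015), and was not called in AL_DCF against either control, where AL_DCF 2 was within the static range. HERC6, an ISG15 ligase in mouse, was 81.5 and 80.9 CPM in ST, 82.1 and 76.9 in ST_DCF, 61.5 and 48.7 in AL, and 38.1 and 70.8 in AL_DCF, and was called for the averaged stimulus at −0.55 ± 0.15 (adjusted p = 0.015). The human ligase gene HERC5 had −0.47 (adjusted p = 0.16) in AL and was called nowhere. In AL against ST the call of ISG15 ended without ST 2 (0.18) or AL 2 (0.20). The call of USP18 ended without ST 2 (0.096) or AL 2 (0.14). In AL_DCF the call of UBE2L6 ended without ST 1 (0.067), ST 2 (0.20) or AL_DCF 1 (0.14) against ST and without ST_DCF 2 (0.057) against ST_DCF, that of ISG15 against ST_DCF without ST_DCF 2 (0.084) or AL_DCF 1 (0.085), and the averaged call of HERC6 without AL 2 (0.066).

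Genes of RNA sensing and of the metabolism of viral RNA had the lowest median of any role in AL, −1.10 over 5 genes with 4 called lower. CMPK2, a mitochondrial nucleotide kinase, was 33.1 and 47.3 CPM in ST, 62.8 and 47.1 in ST_DCF, 15.6 and 9.94 in AL, and 10.8 and 26.9 in AL_DCF, and it fell, at −1.65 ± 0.35 (adjusted p = 0.0067) in AL, −1.09 ± 0.34 (adjusted p = 0.045) in AL_DCF against ST and −1.54 ± 0.34 (adjusted p = 0.0080) against ST_DCF. RSAD2, which makes a chain-terminating nucleotide from CTP, was 29.9 and 44.5 CPM in ST, 56.9 and 40.5 in ST_DCF, 20.3 and 9.89 in AL, and 14.4 and 36.6 in AL_DCF, and it fell, at −1.30 ± 0.40 (adjusted p = 0.042) in AL. The annotated spans of CMPK2 and RSAD2 overlap, so reads in the shared stretch cannot be assigned where strand was not used in counting. DDX60, a helicase that assists RNA sensing, was 165 and 176 CPM in ST, 204 and 171 in ST_DCF, 90.1 and 68.6 in AL, and 76.3 and 144 in AL_DCF. It fell, at −1.10 ± 0.23 (adjusted p = 0.0063) in AL and −0.77 ± 0.23 (adjusted p = 0.033) in AL_DCF against ST_DCF. IFIH1, the cytosolic sensor of long double-stranded RNA, was 66.5 and 91.0 CPM in ST, 94.2 and 83.2 in ST_DCF, 51.4 and 37.4 in AL, and 49.4 and 87.1 in AL_DCF, and fell, at −0.83 ± 0.23 (adjusted p = 0.030) in AL. ISG20, an RNA exonuclease, was 31.6 and 35.3 CPM in ST, 39.1 and 39.4 in ST_DCF, 30.4 and 22.9 in AL, and 25.6 and 30.8 in AL_DCF, and it was called only with DCF in both groups, −0.48 ± 0.14 (adjusted p = 0.027), and for the averaged stimulus. In AL against ST, the call of CMPK2 ended without ST 2 (0.061) or AL 2 (0.081). The call of RSAD2 ended without ST 1 (0.057), ST 2 (0.24) or AL 2 (0.27). The call of DDX60 ended without AL 2 (0.079). The call of IFIH1 ended without ST 2 (0.23) or AL 2 (0.23). In AL_DCF against ST the call of CMPK2 ended without ST 1 (0.061), ST 2 (0.27), AL 1 (0.050), AL 2 (0.050) or AL_DCF 1 (0.16). Against ST_DCF, that of CMPK2 ended without ST_DCF 1 (0.054). The call of DDX60 ended without ST_DCF 1 (0.16) or AL_DCF 1 (0.11). The call of ISG20 ended without ST_DCF 1 (0.080), ST_DCF 2 (0.076) or AL_DCF 1 (0.13).

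The membrane restriction factors, which hinder virus entry or release, had a median log2 fold change of −0.36 in AL over 5 genes. IFITM3 was 920 and 914 CPM in ST, 860 and 1161 in ST_DCF, 763 and 667 in AL, and 647 and 855 in AL_DCF, and IFITM1 was 328 and 350 CPM in ST, 355 and 406 in ST_DCF, 273 and 215 in AL, and 221 and 308 in AL_DCF. All 4 AL libraries were below the static ones in both genes. IFITM1 fell, at −0.48 ± 0.15 (adjusted p = 0.046) in AL and −0.52 ± 0.15 (adjusted p = 0.028) in AL_DCF against ST_DCF, and IFITM3 was called only for the averaged stimulus, at −0.39 ± 0.10 (adjusted p = 0.013). IFITM2 moved the other way, at 2.53 and 2.35 CPM in ST, 2.16 and 2.94 in ST_DCF, 4.36 and 4.00 in AL, and 4.01 and 5.65 in AL_DCF. It rose, at 0.78 ± 0.24 (adjusted p = 0.041) in AL, 0.98 ± 0.23 (adjusted p = 0.013) in AL_DCF against ST and 0.92 ± 0.23 (adjusted p = 0.016) against ST_DCF. IFITM2 and IFITM3 are close paralogues on chromosome 11 whose reads the counting could split, so the low IFITM2 values are uncertain. BST2, or tetherin, was 394 and 404 CPM in ST, 403 and 489 in ST_DCF, 340 and 291 in AL, and 301 and 429 in AL_DCF, with −0.34 (adjusted p = 0.14) in AL and a call for the averaged stimulus at −0.31 ± 0.10 (adjusted p = 0.040). PLSCR1, a scramblase that limits virus entry, was 191 and 199 CPM in ST, 197 and 193 in ST_DCF, 150 and 118 in AL, and 133 and 195 in AL_DCF, and fell in AL, at −0.54 ± 0.15 (adjusted p = 0.033). In AL against ST the call of IFITM1 ended without ST 1 (0.13), ST 2 (0.22) or AL 2 (0.33). The call of IFITM2 ended without ST 1 (0.15), ST 2 (0.20), AL 1 (0.19) or AL 2 (0.12). The call of PLSCR1 ended without ST 1 (0.11), ST 2 (0.16) or AL 2 (0.26). In AL_DCF the call of IFITM2 ended without ST 1 (0.072), ST 2 (0.11) or AL_DCF 2 (0.094) against ST and without ST_DCF 1 (0.10) or AL_DCF 2 (0.13) against ST_DCF, and that of IFITM1 against ST_DCF without ST_DCF 2 (0.13) or AL_DCF 1 (0.14). The averaged call of IFITM3 ended without AL 2 (0.064). The averaged call of BST2 ended without ST 1 (0.085), ST 2 (0.11), ST_DCF 2 (0.12), AL 2 (0.15) or AL_DCF 1 (0.089).

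PARP9, PARP14 and DTX3L, which encode ADP-ribosyltransferases and a ubiquitin ligase partner, fell together in AL. PARP14 was 505 and 577 CPM in ST, 582 and 504 in ST_DCF, 316 and 242 in AL, and 301 and 486 in AL_DCF, and fell, at −0.95 ± 0.19 (adjusted p = 0.0050). PARP9 was 252 and 276 CPM in ST, 283 and 278 in ST_DCF, 173 and 124 in AL, and 164 and 270 in AL_DCF, and fell, at −0.83 ± 0.20 (adjusted p = 0.013). DTX3L, whose span overlaps that of PARP9 on chromosome 3, was 314 and 347 CPM in ST, 326 and 318 in ST_DCF, 232 and 169 in AL, and 215 and 333 in AL_DCF, and fell, at −0.72 ± 0.18 (adjusted p = 0.017). None of the 3 was called in AL_DCF, where replicate 2 lay within or near the ST range. The call of PARP14 ended without AL 2 (0.069). The call of PARP9 ended without ST 2 (0.086) or AL 2 (0.14). The call of DTX3L ended without ST 1 (0.053), ST 2 (0.11) or AL 2 (0.17).

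Of the other interferon-induced members, TRIM22, a ubiquitin ligase with antiviral activity, fell most. It was 52.1 and 59.5 CPM in ST, 63.3 and 68.4 in ST_DCF, 22.8 and 19.0 in AL, and 18.7 and 39.1 in AL_DCF, with −1.41 ± 0.25 (adjusted p = 0.0023) in AL, −0.95 ± 0.24 (adjusted p = 0.019) in AL_DCF against ST and −1.19 ± 0.24 (adjusted p = 0.0053) against ST_DCF. Here AL_DCF 2 was above the other AL libraries and still below all static ones. SAMD9, which restricts poxviruses, was 187 and 215 CPM in ST, 192 and 169 in ST_DCF, 99.5 and 66.2 in AL, and 83.0 and 149 in AL_DCF, and its neighbour SAMD9L was 28.7 and 35.4 CPM in ST, 35.0 and 31.7 in ST_DCF, 15.0 and 12.3 in AL, and 13.7 and 27.1 in AL_DCF. SAMD9 fell, at −1.28 ± 0.23 (adjusted p = 0.0031) in AL and −0.79 ± 0.23 (adjusted p = 0.035) in AL_DCF against ST, and SAMD9L fell, at −1.23 ± 0.24 (adjusted p = 0.0050), in AL and was not called in AL_DCF, at −0.65 (adjusted p = 0.083) against ST and −0.71 (adjusted p = 0.056) against ST_DCF. IFI35 was 115 and 115 CPM in ST, 109 and 132 in ST_DCF, 67.6 and 51.2 in AL, and 59.4 and 87.7 in AL_DCF, and fell, at −0.95 ± 0.17 (adjusted p = 0.0027) in AL, −0.65 ± 0.17 (adjusted p = 0.022) in AL_DCF against ST and −0.71 ± 0.17 (adjusted p = 0.012) against ST_DCF. In AL_DCF against ST the call of TRIM22 ended without ST 1 (0.053) or ST 2 (0.12). The call of SAMD9 ended without ST 1 (0.080), ST 2 (0.19) or AL_DCF 1 (0.16). The call of IFI35 ended without ST 1 (0.094), ST 2 (0.10) or AL_DCF 1 (0.12). The call of SAMD9L in AL ended without AL 2 (0.061). The call of IFI35 against ST_DCF ended without ST_DCF 2 (0.076) or AL_DCF 1 (0.060).

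IFI6 and LGALS3BP were abundant members that fell in all 3 comparisons. IFI6, a small membrane protein, was 1227 and 1185 CPM in ST, 1224 and 1514 in ST_DCF, 873 and 755 in AL, and 560 and 855 in AL_DCF, with −0.57 ± 0.16 (adjusted p = 0.034) in AL, −0.77 ± 0.17 (adjusted p = 0.0077) in AL_DCF against ST and −0.95 ± 0.17 (adjusted p = 0.0020) against ST_DCF. LGALS3BP, a secreted glycoprotein that binds galectins (chr17:78971255-78979923), was 1071 and 1075 CPM in ST, 1290 and 1279 in ST_DCF, 907 and 920 in AL, and 825 and 816 in AL_DCF. The 4 groups of LGALS3BP did not overlap. LGALS3BP fell, at −0.23 ± 0.07 (adjusted p = 0.039) in AL, −0.39 ± 0.07 (adjusted p = 0.0028) in AL_DCF against ST and −0.65 ± 0.07 (adjusted p = 7.2e-05) against ST_DCF. XAF1, a pro-apoptotic protein, was 149 and 166 CPM in ST, 156 and 157 in ST_DCF, 104 and 83.6 in AL, and 83.6 and 150 in AL_DCF, and fell in AL, at −0.75 ± 0.20 (adjusted p = 0.025). IFI27 was 1090 and 1075 CPM in ST, 941 and 1329 in ST_DCF, 945 and 826 in AL, and 844 and 900 in AL_DCF, and EPSTI1 was 37.2 and 40.7 CPM in ST, 43.4 and 45.1 in ST_DCF, 25.8 and 19.8 in AL, and 20.6 and 43.2 in AL_DCF. Both were called only for the averaged stimulus, at −0.33 ± 0.09 (adjusted p = 0.018) and −0.62 ± 0.18 (adjusted p = 0.019), and IFI44 and IFI44L were called nowhere, with −0.61 and −0.67 in AL. In AL against ST the call of IFI6 ended without ST 1 (0.15), ST 2 (0.12), AL 1 (0.083) or AL 2 (0.23). The call of LGALS3BP ended without ST 1 (0.21), ST 2 (0.23), AL 1 (0.23) or AL 2 (0.19). The call of XAF1 ended without ST 1 (0.069), ST 2 (0.14), AL 1 (0.056) or AL 2 (0.19). In AL_DCF against ST the call of IFI6 ended without ST 1 (0.052), and the averaged call of IFI27 without ST 1 (0.055), ST 2 (0.055) or AL 2 (0.084). The averaged call of EPSTI1 ended without ST 2 (0.061) or AL 2 (0.080).

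**Figure D3:**
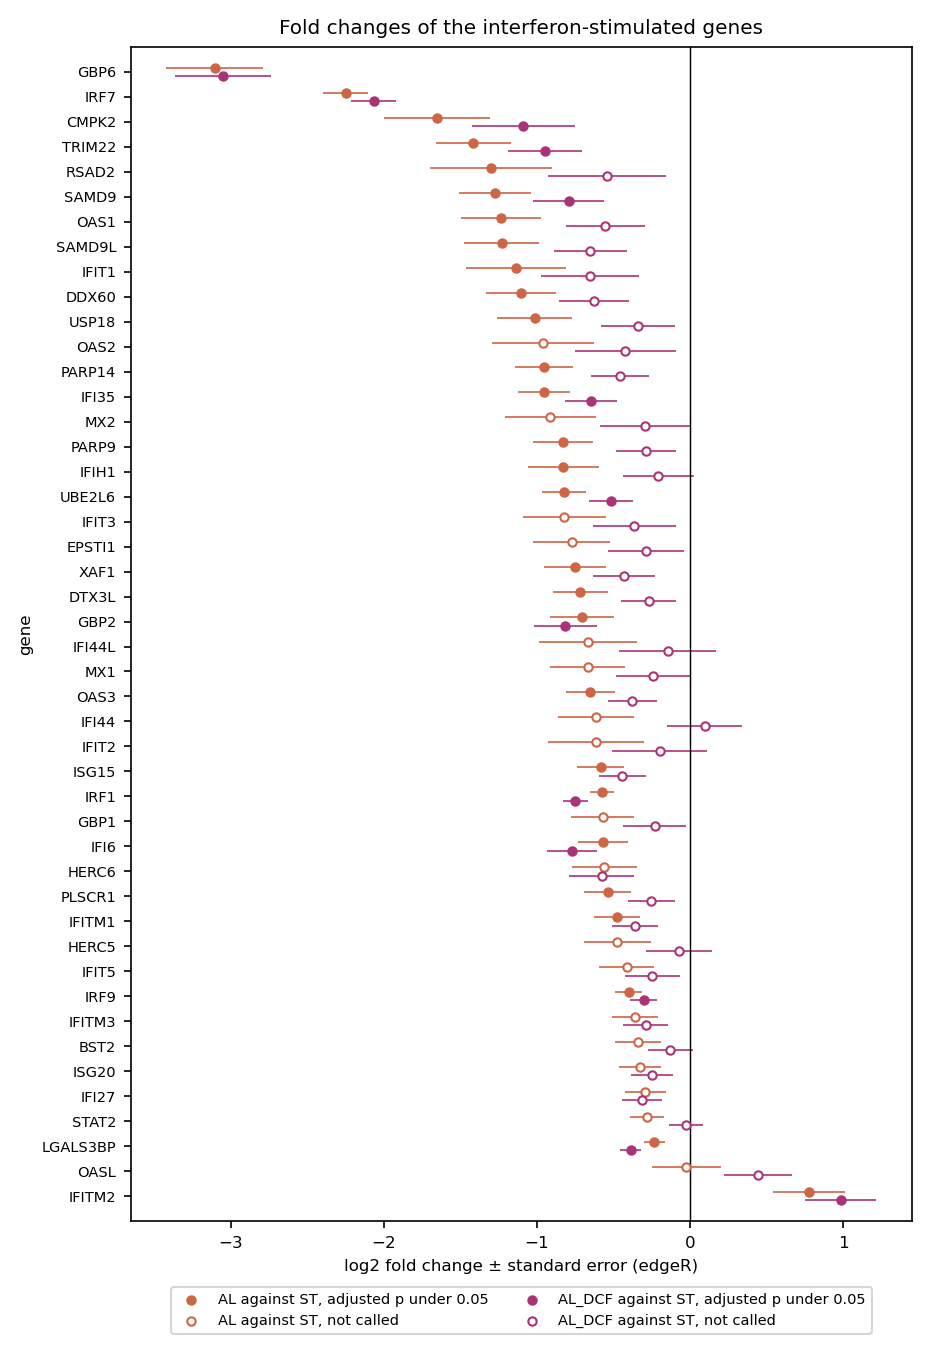
Log2 fold change ± standard error of each member in AL against ST and in AL_DCF against ST, from edgeR's quasi-likelihood test; filled points have an adjusted p under 0.05. In AL 27 members are called lower (10.3% of all genes) and in AL_DCF 12 (9.83% of all genes). IFITM2 is the higher call in both (7.63% and 8.49% of all genes), and GBP6 and IRF7 are lowest in both.

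The AL_DCF libraries differed from each other more than those of any other group in these genes. Replicate 2 was above replicate 1 for 43 of the 46 members, where 51.2% of all genes were, and the median difference over the members was 0.71 on the log2 scale, against 0.0076 over all genes. It was more than 1.5-fold higher for 28 members, a size reached by 3.75% of all genes. The ratio of replicate 2 to replicate 1 was highest for IFI44L at 2.66, OAS2 at 2.66, RSAD2 at 2.54 and CMPK2 at 2.48. AL_DCF 2 exceeded both AL libraries for 40 members (41.0% of all genes), the lower ST library for 23 (57.9% of all genes) and both ST libraries for 12 (41.7% of all genes). AL_DCF 1, in contrast, lay between the AL libraries for 35 members (25.2% of all genes) and above the lower ST library for 2, OASL and IFITM2 (58.1% of all genes). The members that were lower in replicate 2 were GBP6, GBP2 and LGALS3BP, with ratios of 0.63, 0.83 and 0.99, and IRF7, IFI27 and IRF1 were at 1.02, 1.07 and 1.10. By role, the mean log2 level relative to ST in AL_DCF replicates 1 and 2 was −0.92 and 0.04 for the IFIT genes, −0.93 and 0.20 for MX1 and MX2, and −0.74 and 0.15 for the OAS genes. For the transcription factor genes it was −0.86 and −0.71, and for the guanylate-binding proteins −1.32 and −1.35. The last 2 means cover unlike genes. IRF7 was at −2.06 and −2.03 and IRF1 at −0.82 and −0.68. IRF9 was at −0.41 and −0.20 and STAT2 at −0.14 and 0.08. GBP1 was at −0.65 and 0.11 while GBP6 was at −2.64 and −3.25 and GBP2 at −0.65 and −0.92.

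Smaller shifts of the whole set were seen between the libraries of other groups. AL 1 was above replicate 2 for 45 of the 46 members (50.0% of all genes), 10 of them by more than 1.5-fold, LGALS3BP being the exception. ST 2 was above replicate 1 for 40 members (49.9% of all genes), none by more than 1.5-fold, and in ST_DCF 26 members were higher in replicate 2 (49.5% of all genes). The mean log2 level of the 46 members relative to ST was −0.10 and 0.10 in the ST libraries, 0.14 and 0.15 in ST_DCF, −0.596 and −0.996 in AL, and −0.84 and −0.17 in AL_DCF, while that of all genes tested was between −0.06 and 0.02. Most members thus moved in the same direction between the libraries of AL, AL_DCF and ST.

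DCF had no called effect on any member. In ST_DCF against ST edgeR called 0 of 46 members (0.00573% of all genes higher and 0% lower), DESeq2 and limma also called 0, and 2 members were at an unadjusted p under 0.05. The median log2 fold change was 0.14, and both ST_DCF libraries were above both ST libraries for 13 members (21.3% of all genes) and below them for 1, IRF9 (21.6% of all genes). The largest value was that of OASL, 0.59 ± 0.23 (adjusted p = 0.43). LGALS3BP, at 0.26 ± 0.07 (adjusted p = 0.36), had the smallest unadjusted p, 0.0032. In AL_DCF against AL edgeR, DESeq2 and limma again called 0 (0.103% of all genes higher and 0.252% lower by edgeR), 10 members had an unadjusted p under 0.05, and the median was 0.37 with 40 members above 0. Both AL_DCF libraries were above both AL libraries for 1 member, IRF7 (23.4% of all genes), and below them for 2, IRF1 and LGALS3BP (20.7% of all genes). Without AL_DCF 1, 14 members were called higher in AL_DCF than in AL, namely OAS1, OAS2, MX1, MX2, USP18, DDX60, PARP9, PARP14, IFI44, IFI44L, XAF1, SAMD9L, TRIM22 and EPSTI1, where 0.222% of all genes were, and without AL_DCF 2 the count was 0 (0.0511% of all genes). Averaged over both flow states, DCF gave 0 calls (0.0287% of all genes higher and 0.0974% lower), with 6 members at an unadjusted p under 0.05 and 2 called higher, TRIM22 and EPSTI1, without AL_DCF 1 (0.0625% of all genes).

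Whether the effect of AL differed with the drug was asked with an interaction term. By edgeR 0 members were called (0% of all genes higher and 0.0344% lower), 2 were at an unadjusted p under 0.05, IRF1 and LGALS3BP, and the median was 0.22. DESeq2 called 1 member lower (0.607% of all genes), LGALS3BP, whose edgeR value was −0.41 ± 0.10 (adjusted p = 0.21), and limma called 0. In the libraries, LGALS3BP and IRF1 were higher with DCF in static culture and lower with DCF under AL, without overlap in either case, an order shown by these 2 of the 46 members and by 4.1% of all genes.

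Upstream of these genes, the interferon ligand genes in the table had few counts. IFNB1, which encodes interferon beta, had 3 to 9 raw counts per library and was not tested, and IFNE was between 0.262 and 0.651 CPM and not called. IFNK, IFNL1, IFNL2, IFNL3, IFNG, IFNW1 and IFNA1 were not analysed here. Of 6 receptor genes, 2 rose and 1 fell in AL against ST (7.63% and 10.3% of all genes). IFNLR1, the specific subunit of the type III receptor that is used mainly by epithelia, was 25.6 and 28.5 CPM in ST, 28.4 and 26.0 in ST_DCF, 15.1 and 15.2 in AL, and 17.4 and 15.9 in AL_DCF, and fell, at −0.84 ± 0.11 (adjusted p = 2.7e-04) in AL, −0.70 ± 0.11 (adjusted p = 9.5e-04) in AL_DCF against ST and −0.71 ± 0.11 (adjusted p = 7.4e-04) against ST_DCF. Its AL libraries did not overlap the static ones. IFNAR2, a subunit of the type I receptor, and IL10RB, the type III receptor subunit that is shared with interleukin receptors, rose, at 0.36 (adjusted p = 0.031) and 0.38 (adjusted p = 0.0081) in AL. Both calls were lost when ST 1, ST 2 or AL 1 was left out, and that of IFNAR2 also when AL 2 was. IFNAR1, IFNGR1 and IFNGR2 had −0.01 (adjusted p = 0.96), 0.04 (adjusted p = 0.78) and 0.22 (adjusted p = 0.14).

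The receptor kinase genes JAK1 and TYK2 had −0.13 (adjusted p = 0.31) and 0.20 (adjusted p = 0.21) in AL, and TYK2 was called higher for the averaged stimulus, at 0.21 (adjusted p = 0.049), a call lost without either ST library, either AL library, ST_DCF 1 or AL_DCF 1. JAK1 was called lower in AL_DCF than in ST when AL_DCF 2 was left out. IRF5, which lies outside the set, fell in AL, at −0.70 ± 0.11 (adjusted p = 0.0014), and IRF8, also outside it, rose, at 0.79 ± 0.17 (adjusted p = 0.0081), with −0.77 and 0.77 in AL_DCF against ST, both called. The IRF8 calls ended when ST 1 was left out, and that in AL also when AL 1 was. IRF3, which relays the RNA and DNA sensors, had −0.02 (adjusted p = 0.93). Of 14 tested genes for nucleic acid sensors and adaptors, 5 were lower and 0 higher in AL (10.3% and 7.63% of all genes). The lower genes were EIF2AK2 at −0.54 (adjusted p = 0.015), TICAM1 at −0.38, DHX58 at −0.55, MAVS at −0.26 and ADAR at −0.36. In AL_DCF against ST 0 of these sensor genes were called (9.83% of all genes lower and 8.49% higher). The sensor count was 0 when ST 1, ST 2 or AL 2 was left out and 1 for AL 1. Of 7 negative regulators such as SOCS1, SOCS3 and PTPN2, 0 were called in AL and 0 in AL_DCF against ST. PTPN11 was called higher against ST_DCF, at 0.27 (adjusted p = 0.042), a call that ended when either ST, either AL, ST_DCF 2 or AL_DCF 2 was left out, and for the averaged stimulus SOCS3 was lower, at −0.27 (adjusted p = 0.041), and PIAS4 higher, at 0.28 (adjusted p = 0.010). The SOCS3 call was lost in the same fits as that of PTPN11, and the PIAS4 call without ST 1.

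A wider list of interferon-induced genes outside the set, chosen with earlier results of these data known, showed the same direction. Of 34 tested, 20 were lower and 0 higher in AL (10.3% and 7.63% of all genes), with a median of −0.55. In AL_DCF against ST 10 were lower (9.83% of all genes), with a median of −0.27, and against ST_DCF 12 were lower (11.4% of all genes). LAMP3, a lysosomal membrane protein, was 54.0 and 58.7 CPM in ST, 53.0 and 51.5 in ST_DCF, 15.3 and 12.7 in AL, and 14.6 and 20.6 in AL_DCF, and fell, at −2.01 ± 0.15 (adjusted p = 4.9e-06) in AL and −1.68 ± 0.15 (adjusted p = 1.7e-05) in AL_DCF. PARP12, an antiviral ADP-ribosyltransferase, fell, at −1.02 (adjusted p = 3.3e-04) and −0.93 (adjusted p = 6.7e-04), RTP4 at −1.86 (adjusted p = 4.3e-04) and −1.59 (adjusted p = 0.0012), and BATF2 at −1.31 (adjusted p = 0.0024) and −1.01 (adjusted p = 0.0095). CD274, which encodes the checkpoint ligand PD-L1, was 52.8 and 52.0 CPM in ST, 57.0 and 54.6 in ST_DCF, 31.9 and 28.2 in AL, and 44.3 and 41.3 in AL_DCF. It fell, at −0.80 ± 0.09 (adjusted p = 9.8e-05) in AL and was called higher in AL_DCF than in AL, at 0.51 ± 0.09 (adjusted p = 0.036), without overlap between those pairs. That call was lost when any AL, AL_DCF or ST library was left out. RNF213 fell in AL, at −0.63 (adjusted p = 0.0019) and was not called in AL_DCF, at −0.15 (adjusted p = 0.37). The mean log2 level of this list relative to ST was −0.56 and −0.83 in AL, and −0.70 and −0.26 in AL_DCF, so the AL_DCF libraries were split in the direction seen for the 46 members. The count of 20 was 8 when AL 2 was left out and 10 for ST 2. The count of 10 was 3 for ST 2 and 16 for AL_DCF 2, and the count of 12 was 19 for AL_DCF 2.

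The genes of MHC class I and antigen processing, many of which interferon also induces, fell with less difference between the AL_DCF libraries. Of 15 genes, 12 were lower in each of the comparisons of AL with ST, AL_DCF with ST and AL_DCF with ST_DCF, with medians of −0.42, −0.42 and −0.58. Of all genes tested, 10.3%, 9.83% and 11.4% were lower in these comparisons. HLA-F was 158 and 169 CPM in ST, 194 and 215 in ST_DCF, 93.0 and 97.3 in AL, and 85.3 and 94.2 in AL_DCF, with −0.78 ± 0.09 (adjusted p = 9.6e-05) in AL and −0.86 ± 0.09 (adjusted p = 4.8e-05) in AL_DCF, and PSMB10, an immunoproteasome subunit, had −0.68 ± 0.13 (adjusted p = 0.0035) and −0.86 ± 0.13 (adjusted p = 8.3e-04). The mean log2 level of the 15 genes relative to ST was −0.43 and −0.47 in AL and −0.53 and −0.36 in AL_DCF. The 12 in AL were 3 when ST 2 was left out, 7 for ST 1, 4 for AL 2 and 6 for AL 1. The 12 in AL_DCF against ST were 4 when ST 2 was left out, 5 for ST 1 and 6 for AL_DCF 1. The share of all genes called in those fits is not given here. HLA genes are similar in sequence, so their separate values are uncertain. Of 15 NF-kB feedback and inflammatory genes, 4 were lower in AL (10.3% of all genes), namely TNFAIP3, BIRC3, IL1A and LTB. In AL_DCF against ST 2 were lower (9.83% of all genes), TNFAIP3 and LTB. There 1 was higher (8.49% of all genes), the chemokine gene CXCL8, at 1.36 ± 0.21 (adjusted p = 0.0012). In this list AL_DCF 1 was the higher of the pair, with a mean log2 level of 0.15 against −0.20 in replicate 2, the reverse of the order in the interferon-stimulated genes. With single libraries left out, the 4 lower genes in AL were 2 (ST 1, ST 2 or AL 2) to 7 (either ST_DCF library), and the 2 lower in AL_DCF against ST were 0 (ST 2) to 3 (AL_DCF 1).

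**Figure D4:**
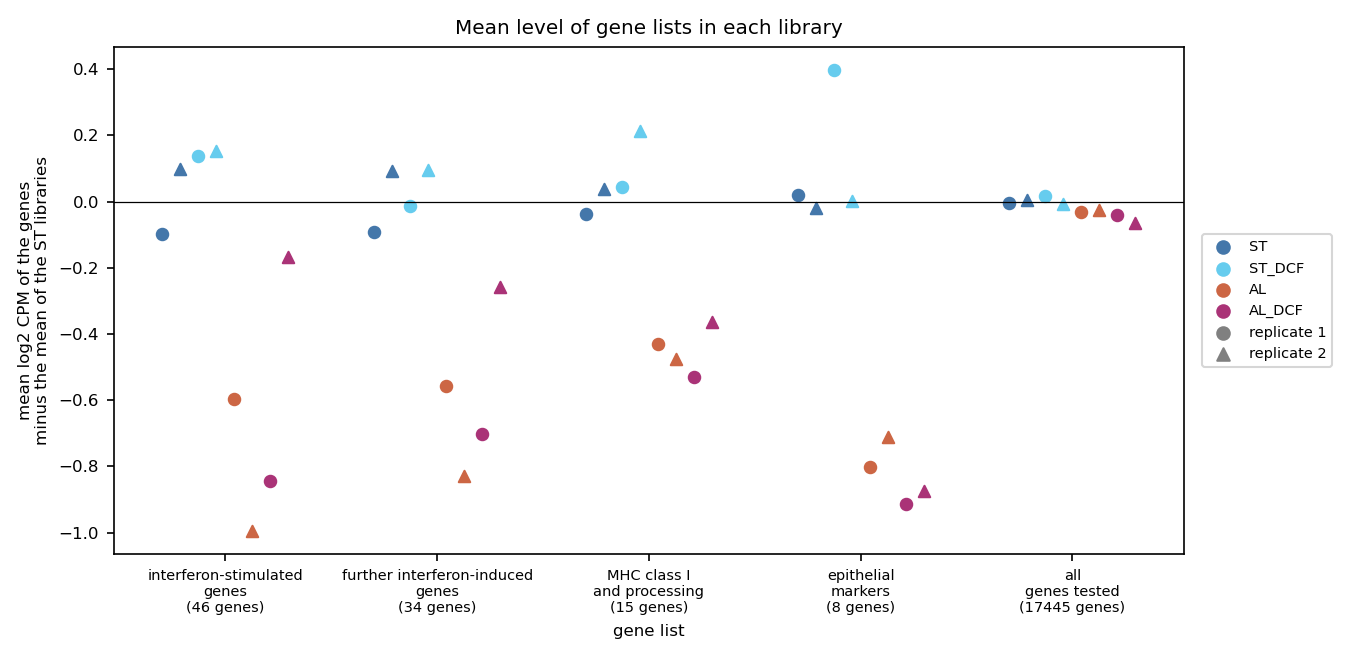
Mean log2 CPM of the genes of 5 lists in each library, minus the mean of the ST libraries (circle, replicate 1; triangle, replicate 2; colour, condition). For the 46 members AL_DCF 2 (−0.17) lies far above replicate 1 (−0.84), whereas for the epithelial markers the AL_DCF libraries are close together (−0.91 and −0.87).

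Marker genes of the cells were read in the same libraries. Of 10 epithelial markers, 8 were in the table (KRT12 and KRT3 of corneal differentiation were not analysed here). In AL 5 fell (10.3% of all genes), including CDH1 at −2.08 (adjusted p = 1.8e-07) and KRT18 at −0.98 (adjusted p = 1.8e-05). PAX6 was the 1 marker called higher (7.63% of all genes), at 0.50 (adjusted p = 0.024). Over the 8 markers the values ran from −2.08 to 1.10, with 2 above 0, and the highest was not called. The epithelial markers summed to 3711 to 4265 CPM in the static libraries and 1661 to 1960 in the AL libraries, and their part in the fall of the interferon-stimulated genes was not tested. In AL_DCF the sum was 1661 in replicate 1 and 1728 in replicate 2, and its relation to the split of the interferon-stimulated genes was not tested. Leukocyte markers were represented by 4 of 8 genes (PTPRC, CD3E, LYZ and TYROBP were not analysed here), summing to 62.4 to 80.0 CPM in static and 44.7 to 71.8 in AL libraries, most of it from CD68. CD68 and CSF1R were called lower in AL, at −0.46 (adjusted p = 0.0031) and −1.06 (adjusted p = 0.0053), and CD68 was higher in AL_DCF than in AL, at 0.67 (adjusted p = 0.0067). Both CD68 calls ended without AL 2, and the CSF1R call without AL 1. The 3 plasmacytoid dendritic cell markers were not analysed here. Endothelial markers summed to 4.07 to 22.7 CPM, with PECAM1 higher in AL, at 2.14 (adjusted p = 0.0028), and CDH5 lower, at −1.20 (adjusted p = 0.0093), a call lost without ST 1 or AL 1. The 4 of 6 fibroblast markers in the table summed to 18.7 to 57.3 CPM, with the highest sum in AL 2, and PDGFRB and COL1A2 were called higher in AL, COL1A2 not without ST 1, ST 2 or AL 2. The labels' extraction note speaks of myoblasts where all other labels name HCE-T; of 5 skeletal muscle markers only DES was in the table, at 0.457 to 1.36 CPM and higher in AL at 1.34 (adjusted p = 0.021), a call lost when either ST or either AL library was left out.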

How the data were processed

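Poly(A) RNA-seq (TruSeq stranded mRNA, Illumina) was measured in 8 libraries of HCE-T cells. Per the labels and methods, the authors trimmed reads with Trimmomatic 0.38, used HISAT2 2.1.0, with Bowtie2 2.3.5.1 named beside it, for mapping to GRCh38, and obtained transcripts and counts from StringTie 2.1.3b. The deposited table holds raw read counts per gene, FPKM and TPM per library, and a log2 column of normalized values by the authors; it lists only genes with a count in every library, which leaves genes lost in one group out of reach. Whether counting used strand is not given in the sources used here. The authors' fold changes and p-values in the table were not used.

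The members and lists were chosen with earlier results of these data known. Counts were analysed in R 4.3.3 with edgeR 4.0.16 (filterByExpr, TMM, 1 quasi-likelihood model of 4 groups) because the study's exact test holds no interaction. CPM used TMM-scaled library sizes, and log2 levels a prior count of 2. Alternatives were other scaling factors, DESeq2 1.42.0, no filter, a minimum of 10 counts throughout, the compared groups only, a replicate block, limma 3.58.1 on log2(FPKM + 1) and log2(FPKM + 0.1), a fold of 2, the exact test and leaving out each library. Log2 fold changes on FPKM understate low genes. Per-library values are given for members called in a comparison and for named reference members; pathway genes are named if called (at most 6 a list) or by a fixed list, except some that are not reported here. The code was tested on simulated counts. In a simulated AL against ST, edgeR made 158 calls, of which 16 were false. It recovered 34 of 67 genes changed 1.5-fold, 49 of 67 changed 2-fold and 59 of 66 changed 4-fold. Total counts give the depth, 32880479 to 46369412. The p-values of edgeR's quasi-likelihood test rest on the spread between 2 libraries per group. That spread is pooled over the 4 groups and drawn towards that of all genes. Replicates differed by more than sampling noise (mean chi-square of 5.30 to 23.4 per gene). Gene positions, promoters and names are from RefSeq (GRCh38.p14).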

Additional observations from a re-analysis of the deposited data

Results flagged for a closer look

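In 2 of the 46 members (4.1% of all genes) the DCF libraries lay above the others in static culture and below them under AL, without overlap, a share near that of all genes. IRF1 was higher in both ST_DCF libraries than in both ST libraries and lower in both AL_DCF libraries than in both AL libraries; the log2 interaction was −0.32 ± 0.11 (adjusted p = 0.36) by edgeR's quasi-likelihood test, which did not pass the threshold. LGALS3BP showed the same order in every library, with a log2 interaction of −0.41 ± 0.10 (adjusted p = 0.21) that also missed the threshold with edgeR and was called by DESeq2.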

How the results depend on the processing

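The count of lower members in AL against ST, 27, was 44 with the compared groups only and 17 with limma on log2(FPKM + 1). DESeq2 gave 19 and no filter 18. It was 11 when a fold of 2 was also required. The exact test of edgeR at an unadjusted p under 0.05 and a fold of 2 also gave 11. With DESeq2 and no filter the lower members were 8 and 8 in AL_DCF against ST, and 14 and 12 against ST_DCF. They were 27 and 34 for the averaged stimulus. The AL against ST calls of IFIT1, RSAD2, IFIH1, PLSCR1 and IFI6 ended with DESeq2, no filter and both forms of limma. So did that of DDX60 in AL_DCF against ST_DCF. With either fold rule the lower members numbered 3 in AL_DCF against ST and 5 in AL_DCF against ST_DCF, and 6 for the averaged stimulus when a fold of 2 was also required. The 1 higher member, IFITM2, became 0 with no filter in AL against ST, with the compared groups only in AL_DCF against ST_DCF, and under each fold rule. DESeq2 called 1 member lower in the interaction. When 1 library was left out, the lower members ranged from 7 to 38 in AL against ST, from 5 to 35 in AL_DCF against ST, from 9 to 41 in AL_DCF against ST_DCF and from 25 to 44 for the averaged stimulus; the higher member was 0 to 1 in the first 3. In AL_DCF against AL the higher members ranged from 0 to 14, and for DCF averaged from 0 to 2. All 7 of IRF1, IRF7, GBP6, UBE2L6, IFI35, SAMD9 and TRIM22 kept their call in AL against ST in the 18 alternatives that rest on the adjusted p. So did IRF1, IRF7, GBP6 and LGALS3BP in AL_DCF against ST, and IRF1, IRF7, GBP2, GBP6, IFI6, TRIM22 and LGALS3BP against ST_DCF. No called member changed its sign. For the lower members, the share of all genes called in the fits without 1 library is not given here. Thinning all libraries to the smallest total, an alternative chosen after seeing the data, gave 28, 12 and 16 lower members.

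Replicate numbers are shared between groups by name, and the labels used here state no pairing. Over all genes tested, the correlation of the replicates' deviations between groups was −0.10 to 0.10. This does not settle whether libraries of the same number were handled together, and it was not computed for the members apart. With a replicate block the lower members numbered 28 in AL against ST, 12 in AL_DCF against ST, 17 in AL_DCF against ST_DCF and 39 for the averaged stimulus, with 1 higher in each, and 0 for DCF and the interaction. In AL against ST the block shared 26 of the 27 calls: LGALS3BP lost its call (adjusted p = 0.062 by edgeR's quasi-likelihood test), and MX2 and EPSTI1 gained one (0.049 and 0.047). In the other 3 comparisons it kept every call and added 0, 2 and 2.

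With 2 libraries a group and 4 residual degrees of freedom, the test leans on the spread shared over all genes, which had a biological coefficient of variation of 9.48%; the AL_DCF libraries differed by more than that in most members. GBP6, GBP2 and IFITM2 were below 10 CPM, where counting error is largest.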
